A study of Homo sapiens with 6 samples.

Results

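The urea cycle and arginine metabolism genes were 10 genes chosen by name: NAGS, CPS1, OTC, ASS1, ASL, ARG1, ARG2, the mitochondrial carriers SLC25A15 and SLC25A13, and GLUL. All 10 had a row among the 16720 named rows of the counts table. They were compared in Hep3B, an established line of human hepatocellular carcinoma cells. The sgControl group held 3 libraries of Hep3B cells labelled wild type, whose columns in the counts table carry the word cas and name no guide. Their titles read sgControl, and the study's methods list a control guide. Whether these libraries carry that guide is not stated in the sources used here. The sgRFX6 group held 3 libraries of Hep3B cells labelled RFX6 knockout, and their columns name the guide sg3. RFX6 is a winged helix transcription factor, and the comparison asked which transcripts differed once it had been knocked out. Both groups were cultured without further treatment named in the labels. Guides were delivered with Cas9 by a lentiviral vector, and knockout cells were expanded from single cells after puromycin selection, so sgRFX6 cells may stand for 1 clone. The number of clones behind the libraries is not given in the sources used here. The labels number the libraries as replicates but name no separate cultures, so p-values measure the spread between these libraries only.

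The urea cycle turns ammonia, which is toxic, into urea, which is excreted. In the liver, NAGS makes N-acetylglutamate, the obligate activator of CPS1, and CPS1 joins ammonia and bicarbonate to carbamoyl phosphate in mitochondria. OTC passes this group to ornithine to give citrulline, the carrier SLC25A15 exchanges citrulline and ornithine across the inner membrane, and ASS1 adds aspartate that SLC25A13 (citrin) exports from mitochondria. ASL then releases arginine and fumarate, and arginase, cytosolic ARG1 in hepatocytes or mitochondrial ARG2 in many other tissues, splits arginine into urea and ornithine. Ammonia that escapes the cycle is fixed by GLUL, glutamine synthetase, which in normal liver marks the hepatocytes around the central vein.

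Promoter sequence is shown for the 3 genes whose sgRFX6 libraries all lay below all sgControl libraries, CPS1, ARG2 and NAGS. Of all tested genes, 11.2% were lower in this way, so the choice of these 3 is a description. The stretches come from RefSeq (GRCh38.p14), on the forward strand, and end before the exon that follows in RefSeq or GENCODE 29. Capitals mark a match, on either strand, to the X-box half-site GTTGCC, a core of the site that RFX proteins bind, or to the cAMP response element TGACGTCA.
CPS1, chr2:210593105-210593354: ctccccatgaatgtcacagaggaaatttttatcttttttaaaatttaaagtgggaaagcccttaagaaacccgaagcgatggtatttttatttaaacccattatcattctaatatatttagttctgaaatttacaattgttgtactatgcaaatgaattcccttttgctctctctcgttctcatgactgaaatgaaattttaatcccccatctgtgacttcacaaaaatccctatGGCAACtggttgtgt
ARG2, chr14:67619670-67619797: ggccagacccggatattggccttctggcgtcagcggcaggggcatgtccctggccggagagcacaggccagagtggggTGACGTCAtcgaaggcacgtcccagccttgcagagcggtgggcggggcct
NAGS, chr17:44004372-44004545: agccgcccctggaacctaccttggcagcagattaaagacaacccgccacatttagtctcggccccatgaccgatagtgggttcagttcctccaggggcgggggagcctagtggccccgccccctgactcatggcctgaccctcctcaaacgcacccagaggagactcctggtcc
The CPS1 stretch lies inside the gene as GENCODE annotates it and precedes 1 of its 3 RefSeq starts, and the half-site begins at position -15 from that start. It is shown because it holds the match, and the windows at the other two CPS1 starts held none. ARG2 held the cAMP response element at positions -172 and -64 from its RefSeq start, and the latter lies past the stretch shown.
Over the full windows of 300 bases, 250 before and 50 after each start, all 10 genes were matched, with 14 windows. The half-site was found in 3 of the 14 windows, 1 each of CPS1, ASL and SLC25A15, and in 12.2% of all 35116 windows. ASL and SLC25A15 had log2 fold changes of 0.24 and 0.01 (edgeR adjusted p = 0.736 and 0.991). No window of ARG2 or NAGS held the half-site. The complete X-box was found in 0 of the 14 and in 1.31% of all windows. The cAMP response element was found in 1 of the 14 windows, that of ARG2, and in 1.85% of all windows. The C/EBP motif TTGCNNAA, named for a liver factor family that acts on several urea cycle genes, was found in 0 of the 14 and in 10.5% of all windows. These matches describe letters in a window and not binding.

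The libraries held between 16730374 and 25070770 counts on named rows. Values are given as CPM, counts brought to a common library total with edgeR's TMM factors, and 3 counts, taken as the floor, correspond to between 0.121 and 0.188 CPM. The groups were compared by the quasi-likelihood test of edgeR over the 12839 genes that passed its filter on low counts, and p-values were adjusted over all of them by the Benjamini-Hochberg method. The target gene RFX6 averaged 6.27 ± 0.931 CPM in the controls against 3.54 ± 0.146 CPM in the knockout (SD, n = 3 each), a log2 fold change of -0.82 with an adjusted p-value of 0.142 from edgeR, and every sgRFX6 library lay below every sgControl library. A guide can leave a transcript that is still counted, so this transcript level does not check the protein. The study states that it checked the knockout by quantitative PCR and by western blotting. Library deviations also varied with transcript GC content. Across 12205 genes the Spearman correlation lay between -0.76 (sgRFX6 library 3) and 0.55 (sgRFX6 library 2). Genes are not independent replicates, and the correlation is a description. All 10 hepatocyte markers listed were counted, with a summed level of 260.3 to 307 CPM in sgControl and 209 to 225 CPM in sgRFX6. Among them AFP had a log2 fold change of 2.82, AHSG 1.68 and FGB -2.45, and their edgeR adjusted p-values were 0.00254, 0.0119 and 0.00417. Most of the hepatocyte sum was HNF4A, with means of 151 and 126 CPM, and APOB, with 66.6 and 27.1 CPM. These 2 did not pass the test (edgeR adjusted p = 0.494 and 0.116). The means of ALB, TTR, APOA1, TF, SERPINA1, AFP and AHSG were higher in sgRFX6. Of the 6 stellate cell and fibroblast markers, none was at or below the floor in every library, and their summed level was 31.6 to 35.7 CPM in sgControl and 1.68 to 2.45 CPM in sgRFX6. COL3A1, COL1A2 and COL1A1 fell, 3 of the 4 tested. COL3A1 and COL1A2 lay below the level of the filter in every sgRFX6 library and were tested because of their level in sgControl. The COL1A1 call was lost without sgControl library 3 (0.0558) or sgRFX6 library 1 (0.0650), and that of AHSG without sgControl library 1 (0.0533), sgControl library 3 (0.0705) or sgRFX6 library 1 (0.0613). The 5 blood and immune cell markers summed to 73.6 to 159 CPM in sgControl and 62.8 to 101 CPM in sgRFX6, with CD3E and HBB at the floor. Nearly all of this was CD68, with 72.1 to 156 CPM in sgControl and 61.0 to 99.1 CPM in sgRFX6. PTPRC and CD14 had at most 1.82 CPM in a library. The 3 endothelial markers in the table summed to 11.6 to 13.5 and 13.3 to 19.6 CPM, with KDR at the floor. Of these, PECAM1 alone had 11.37 to 12.95 CPM in sgControl and 13.19 to 19.31 CPM in sgRFX6. The 6 biliary and progenitor markers summed to 712 to 1083 CPM in sgControl and 532 to 831 CPM in sgRFX6, and no gene of these last 3 lists passed the test. Most of the biliary and progenitor sum was KRT19, with 594 to 955 CPM in sgControl and 407 to 749 CPM in sgRFX6. The part of the markers in the results below was not tested. In bulk libraries, fewer cells that express a gene and less RNA per cell cannot be told apart.

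Of the 10 genes, 8 were tested, and 2 of these (25%) passed the threshold, CPS1 and ARG2, both lower in sgRFX6, against 3.74% of all tested genes, 1.92% higher and 1.81% lower. ASS1, ASL, NAGS, SLC25A13, SLC25A15 and GLUL did not pass it. OTC and ARG1, with at most 4 counts in a library, were not tested. The median log2 fold change of the 8 genes was -0.10, beside 0.02 over all tested genes. The groups did not overlap for 4 of the 8, CPS1, ARG2 and NAGS being lower and SLC25A13 higher. Of all tested genes, 23.1% did not overlap, 12% higher and 11.2% lower. CPS1 and NAGS reached the filter's 0.484 CPM, which is applied before TMM scaling, in 3 sgControl libraries but in 1 sgRFX6 library each. They were thus tested because of their level in sgControl. The 10 genes were also chosen with earlier results of these data known, so the counts of genes past the threshold or not overlapping are a description.

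**Figure D1:**
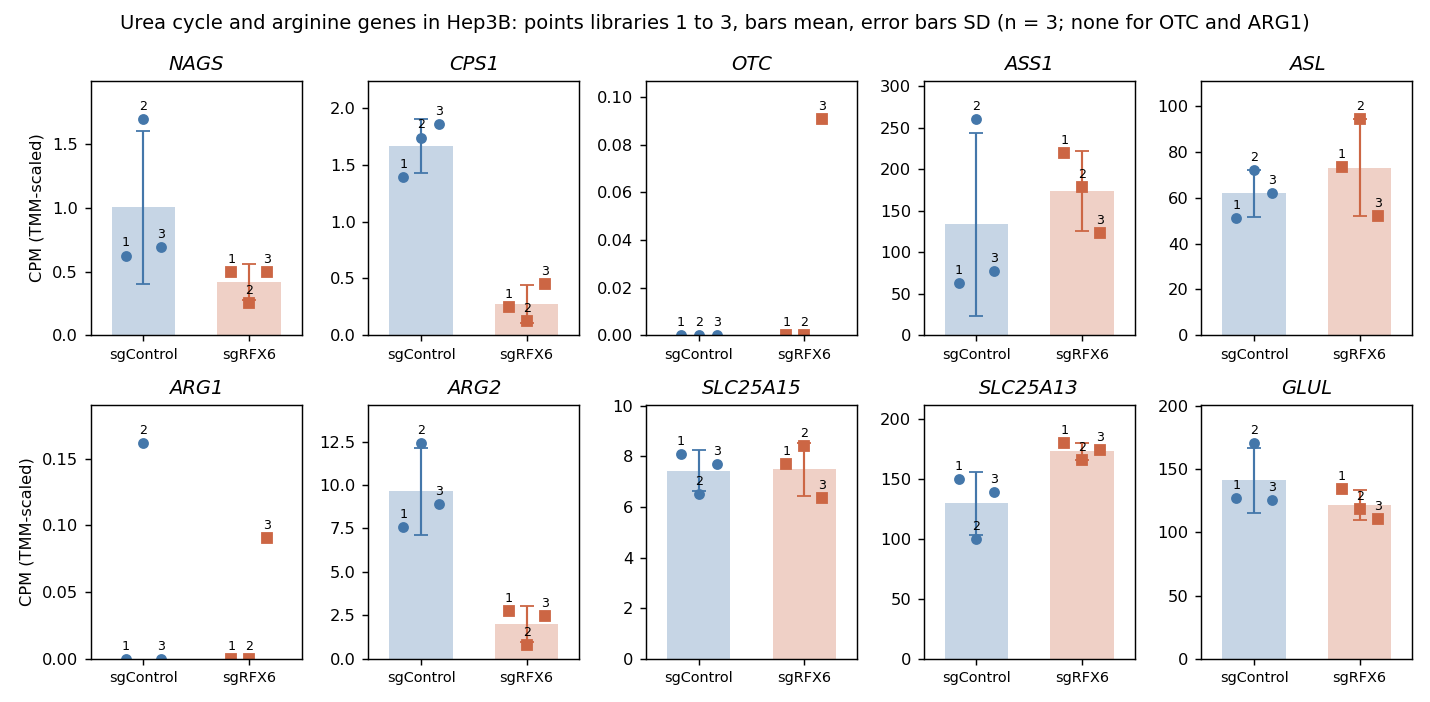
TMM-scaled CPM (vertical axes, linear from 0, a scale for each gene) of the 10 genes in sgControl (circles) and sgRFX6 (squares) libraries, numbered 1 to 3, with bars for the mean and error bars for the SD over 3 libraries, left out for OTC and ARG1. The sgRFX6 libraries of CPS1 (0.126 to 0.454 CPM) and ARG2 (0.817 to 2.73 CPM) sit below all sgControl libraries, and sgControl library 2 stands above the other controls for ASS1.

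CPS1, the entry enzyme of the cycle, lies on chromosome 2 of GRCh38 from 210477682 to 210679107. It was counted 29, 43 and 43 times in sgControl libraries 1, 2 and 3 and 5, 2 and 10 times in the sgRFX6 libraries. This is 1.40, 1.74 and 1.86 CPM in sgControl and 0.248, 0.126 and 0.454 CPM in sgRFX6. The gene was therefore low in both groups and close to the floor in sgRFX6, with a single library at or below 3 counts. The means were 1.66 ± 0.239 and 0.276 ± 0.166 CPM (SD, n = 3 each), and CPS1 fell by 2.52 on the log2 scale (standard error 0.47), or 5.74-fold, with an adjusted p-value of 0.0211 from edgeR. An exact permutation test of CPM, two-sided, gave p = 0.1, the smallest that 3 libraries against 3 allow. The adjusted p-value from edgeR was just above the threshold without sgControl library 2, 0.0982 without sgControl library 3, 0.105 without sgRFX6 library 1 and 0.0684 without sgRFX6 library 2, with log2 fold changes between -3.08 and -2.23 over the 6 fits that each left out 1 library.

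NAGS, whose product switches CPS1 on, lies on chromosome 17 from 44004546 to 44009063. It was counted 13, 42 and 16 times in sgControl and 10, 4 and 11 times in sgRFX6, which is 0.626, 1.70 and 0.690 CPM against 0.497, 0.251 and 0.499 CPM. All sgRFX6 libraries lay below all sgControl libraries, but the gap between the groups was small and sgControl library 2 stood far above the other controls. The log2 fold change was -1.25 (standard error, SE, 0.53, edgeR adjusted p = 0.301), and it was -0.63 without sgControl library 2. CPS1 passed the test and NAGS did not, and the difference between their changes was not tested.

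OTC, the enzyme that follows CPS1 in the mitochondrion, lies on chromosome X from 38352545 to 38421450. It was counted 0 times in each sgControl library and 0, 0 and 2 times in sgRFX6. A count of 0 allows up to 0.145, 0.121 and 0.129 CPM in sgControl libraries 1, 2 and 3, so no level of OTC and no difference could be seen at this depth.
The carrier SLC25A15, which exchanges the product of OTC for ornithine, lies on chromosome 13 from 40789412 to 40810111. Its level was 8.09, 6.52 and 7.68 CPM in sgControl and 7.70, 8.42 and 6.36 CPM in sgRFX6. The groups overlapped fully, with a log2 fold change of 0.01 (SE 0.24, edgeR adjusted p = 0.991). GENCODE 29 annotates 5 pseudogenes of SLC25A15, 11 of ASS1, 4 of GLUL and 1 of ASL, none of which has a row, so how the counting treated reads shared with them is unknown. Of the counts of the 2 mitochondrial carriers together, SLC25A15 took 5.12% (exact binomial 95% interval 4.39% to 5.93%), 6.12% (5.23% to 7.10%) and 5.25% (4.52% to 6.06%) in sgControl and 4.11% (3.50% to 4.8%), 4.84% (4.07% to 5.71%) and 3.53% (2.98% to 4.15%) in sgRFX6. All sgRFX6 shares lay below all sgControl shares, as the level of SLC25A13 lay above.

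ASS1, the cytosolic enzyme that condenses citrulline with aspartate, lies on chromosome 9 from 130444929 to 130501274. It was counted 1298, 6430 and 1794 times in sgControl and 4409, 2845 and 2716 times in sgRFX6. Its level was 62.5, 260.3 and 77.4 CPM in sgControl and 219, 179 and 123 CPM in sgRFX6. Every sgRFX6 library lay above sgControl libraries 1 and 3 and below sgControl library 2. Over all libraries the log2 fold change was 0.38 (SE 0.50, edgeR adjusted p = 0.812). This difference was smaller than the spread of the controls. Without sgControl library 2 it was 1.31, with an adjusted p-value of 0.0610 from edgeR. In limma-voom with quality weights, under which libraries that stand apart count less, the change of ASS1 was 1.39 and its adjusted p-value 0.000688. That setting passed 3998 of all tested genes, against 480 in the main fit, and ASS1 passed in this 1 of its 17 alternatives.
In sgControl library 2, ASS1 was 1.89 above the mean of the other controls on the log2 scale (0.5 CPM added), and 48 of the 12839 tested genes had a higher ratio there. NAGS was 0.93 above them on the same scale, ARG2 0.56, GLUL 0.43 and ASL 0.34, whereas CPS1 was 0.08 above and SLC25A13 had a ratio of -0.53. The GC correlation of this library's deviations was 0.37. With the GC trends removed, ASS1 had a log2 fold change of 0.51 (edgeR adjusted p = 0.499).

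ASL, which splits argininosuccinate, lies on chromosome 7 from 66075798 to 66093558. Its level was 51.3, 72.1 and 62.2 CPM in sgControl and 73.3, 94.3 and 51.9 CPM in sgRFX6, and the groups overlapped. The log2 fold change was 0.24 (SE 0.24, edgeR adjusted p = 0.736). The 50 tested genes closest to ASL had a median log2 fold change of 0.45, and once this was removed ASL had -0.21 (edgeR adjusted p = 0.870). Its exons share 563 bases with AC068533.4, a gene on the same strand that has no row in the table.
The counts of ASS1 over those of ASL, the consecutive enzymes that make arginine, gave a ratio of 1.22 in sgControl library 1, 3.61 in library 2 and 1.25 in library 3. In sgRFX6 the ratio was 2.99, 1.90 and 2.38. As for ASS1 itself, the sgRFX6 libraries lay between sgControl library 2 and the other controls.
SLC25A13, the aspartate and glutamate carrier that supplies ASS1 with aspartate, lies on chromosome 7 from 96120220 to 96322147. Its level was 150 CPM in sgControl library 1, 100 CPM in library 2 and 139 CPM in library 3, and 179, 166 and 174 CPM in sgRFX6. All sgRFX6 libraries lay above all sgControl libraries. The means were 130 ± 26.2 and 173 ± 7.0 CPM (SD, n = 3 each), a log2 fold change of 0.42 (SE 0.19, edgeR adjusted p = 0.330). The 50 tested genes closest to it had a median of 0.20, and once this was removed SLC25A13 had 0.21 (edgeR adjusted p = 0.798). In limma-voom with quality weights the change of SLC25A13 was 0.34 and its adjusted p-value 0.0270. That setting passed 3998 of all tested genes, against 480 in the main fit, and SLC25A13 passed in this 1 of its 17 alternatives.

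The arginases close the cycle. ARG1, the arginase of hepatocytes, lies on chromosome 6 from 131573144 to 131584332. It was counted 0, 4 and 0 times in sgControl and 0, 0 and 2 times in sgRFX6, which gives no level that can be compared.
ARG2 lies on chromosome 14 from 67619798 to 67651720. It was counted 157, 307 and 207 times in sgControl and 55, 13 and 54 times in sgRFX6, which is 7.56, 12.4 and 8.93 CPM against 2.73, 0.817 and 2.45 CPM. The lowest control was above the highest sgRFX6 library, and sgRFX6 library 2 was the lowest of all. The means were 9.64 ± 2.51 and 2.0 ± 1.03 CPM (SD, n = 3 each). ARG2 fell by 2.25 on the log2 scale (standard error 0.44), or 4.76-fold, with an adjusted p-value of 0.0247 from edgeR and p = 0.1 in the two-sided exact permutation test. Without sgControl library 2, sgControl library 3 or sgRFX6 library 1 the adjusted p-value from edgeR was 0.0723, 0.0849 or 0.0577, and over all 6 fits with 1 library left out the log2 fold change lay between -2.53 and -1.90.
Of all arginase counts, ARG2 took between 98.7% (exact binomial 95% interval 96.7% to 99.6%) in sgControl library 2 and 100% in sgControl libraries 1 and 3. In sgRFX6 its share was 100% in libraries 1 and 2 and 96.4% (87.7% to 99.6%) in library 3, where 56 arginase counts remained. Library 2 held only 13 arginase counts, so its interval ran from 75.3% to 100%. Arginase counts in both groups were thus almost wholly those of ARG2.
The exons of ARG2 share 904 bases with VTI1B, a SNARE gene on the opposite strand, and the strand setting of the counting is not stated. VTI1B averaged 55.4 ± 2.47 CPM in the controls against 69.2 ± 9.76 CPM in the knockout (SD, n = 3 each), a log2 fold change of 0.32 (edgeR adjusted p = 0.440). Its mean was higher in sgRFX6, where that of ARG2 was lower, and the part of shared reads in either value was not tested.

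GLUL, which binds ammonia into glutamine, lies on chromosome 1 from 182381704 to 182392206. Its level was 127, 171 and 125 CPM in sgControl and 134, 119 and 111 CPM in sgRFX6. The groups overlapped, with a log2 fold change of -0.22 (SE 0.18, edgeR adjusted p = 0.656).

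**Figure D2:**
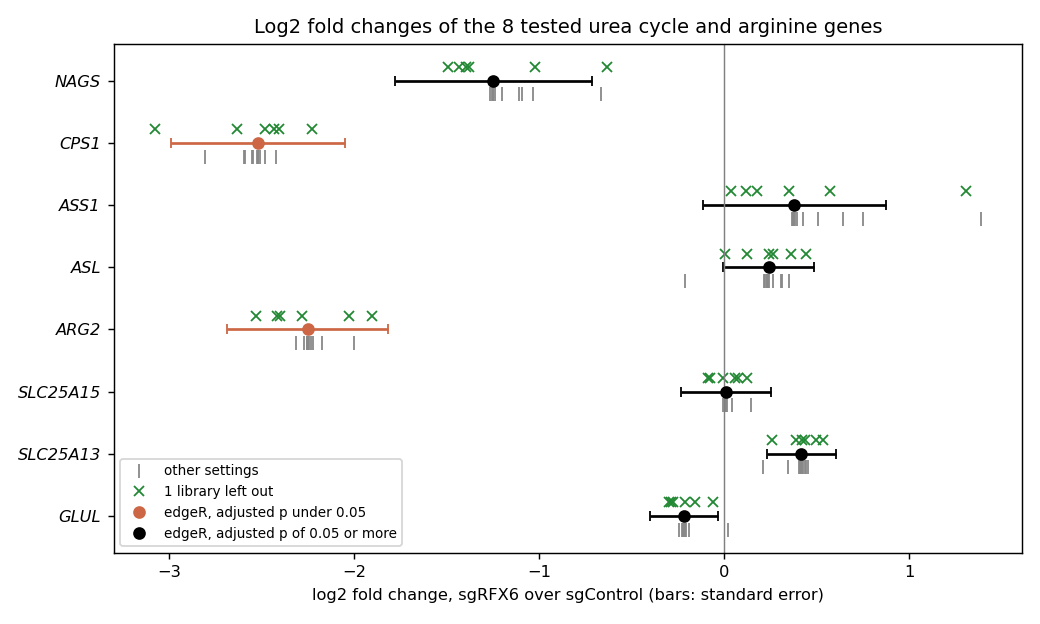
Log2 fold change of sgRFX6 over sgControl (horizontal axis) for the 8 tested genes, with the edgeR value and its standard error (circle and bar), the 6 fits that each left out 1 library (crosses) and the other settings (ticks). CPS1 (-2.52) and ARG2 (-2.25) lie left of 0 under every setting drawn, and the ASS1 value moves from 0.38 to 1.31 without sgControl library 2.

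Levels can be compared between genes only per length, here CPM divided by the length in kilobases of the longest coding transcript in GENCODE 29. In sgControl, ASS1 had the highest mean level per length (67.6 ± 55.8 CPM per kilobase), ahead of SLC25A13 (40.6 ± 8.19), GLUL (29.9 ± 5.45) and ASL (28.9 ± 4.85). ARG2 (4.71 ± 1.23) and SLC25A15 (4.68 ± 0.515) followed, and NAGS (0.461 ± 0.276) and CPS1 (0.286 ± 0.0410) were far lower (SD, n = 3 libraries each). The library ranges of neighbours within each of these 3 tiers overlapped, and the tiers did not overlap in any sgControl library. The first place of ASS1 came from sgControl library 2, with 132 against 31.3 CPM per kilobase for SLC25A13. In sgControl libraries 1 and 3, SLC25A13 (47.0 and 43.4) lay above ASS1 (31.7 and 39.2). In sgRFX6, ASS1 had 88.0 ± 24.3, SLC25A13 54.2 ± 2.19, ASL 34.1 ± 9.90, GLUL 25.7 ± 2.52 and SLC25A15 4.72 ± 0.660 CPM per kilobase, and ARG2 had 0.978 ± 0.506 and no longer lay beside SLC25A15. NAGS had 0.191 ± 0.0653 and CPS1 0.0474 ± 0.0285 CPM per kilobase. The mitochondrial steps NAGS, CPS1 and OTC were thus the low end of the group in both conditions, with ARG1, and the cytosolic enzymes ASS1 and ASL the high end, with SLC25A13 and GLUL.

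**Figure D3:**
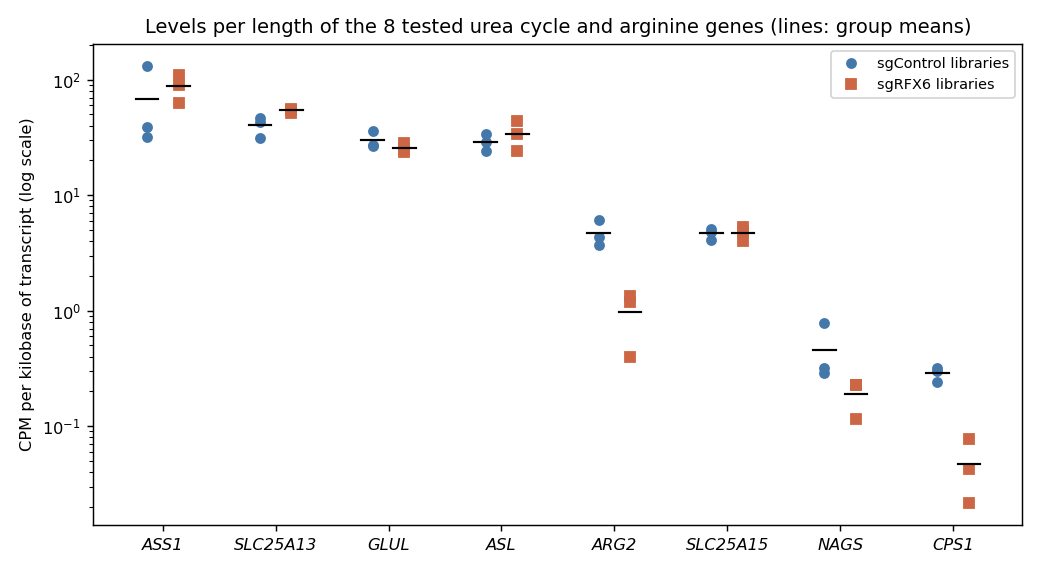
CPM per kilobase of the longest coding transcript (vertical axis, log scale) of the 8 tested genes in each sgControl (circles) and sgRFX6 (squares) library, ordered by the sgControl mean, with lines for the group means. ARG2 lies beside SLC25A15 in sgControl (4.71 and 4.68) and below it in sgRFX6 (0.978 and 4.72).

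Genes that neighbour the cycle were taken from 8 lists by role, with 89 symbols besides the 10, of which 85 were in the table and 71 were tested. Of the symbols without a row, PYCR3 and G6PC1 are current names of PYCRL and G6PC, which had rows on the same lists, and NOS1 and SLC7A3 had none. Where a gene is called the one with the highest CPM of its list, this is the mean over all 6 libraries, not divided by length, and gives no order of levels between genes. Of these 71, 3 were higher and 6 lower in sgRFX6 with an adjusted p-value under 0.05 from edgeR (12.7%, against 3.74% of all tested genes), and their median log2 fold change was -0.0036. Of the 9, PYCR1 and NR1H4 reached the 0.484 CPM of the filter in 0 sgControl libraries and SP5 in 0 sgRFX6 libraries. These 3 were tested because of the group where they were high. The lists were also chosen with earlier results of these data known, so the count of 9 is a description.
The enzymes of glutamate, glutamine and ammonia, with 8 tested genes including GLUL, had no gene past the test and a median of -0.11. GLUD1, the glutamate dehydrogenase that frees or fixes ammonia in mitochondria, had the highest CPM of them, at 192 ± 18.1 CPM against 234 ± 19.8 CPM in sgRFX6 (SD, n = 3 each, edgeR adjusted p = 0.460). GLS2, the liver glutaminase, was at the floor in all libraries.
Among 8 tested ornithine and proline enzymes, PYCR1, which makes proline from a product of ornithine and glutamate, rose, from below the filter in every sgControl library. It was counted 2, 12 and 11 times in sgControl and 105, 78 and 67 times in sgRFX6, or 0.352 ± 0.222 and 4.38 ± 1.17 CPM (SD, n = 3 each). PYCR1 thus had a log2 fold change of 3.59 (SE 0.52, edgeR adjusted p = 0.00760), and it passed the test in all 17 alternatives. The other 7 did not pass, and the median of the list was 0.08. PYCRL, which codes for a related enzyme and had the highest CPM of the list, had 119 ± 25 and 134 ± 43.7 CPM. OAT, the aminotransferase that draws ornithine from the cycle, had a log2 fold change of 0.19 (edgeR adjusted p = 0.742).

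Among 13 tested genes of polyamine synthesis and breakdown, the route from ornithine to spermine, SAT1 fell and the other 12 did not pass the test (median -0.06). SAT1, which acetylates spermidine and spermine for breakdown and export, had 127, 264 and 141 CPM in sgControl and 69.1, 68.2 and 59.1 CPM in sgRFX6. SAT1 fell by 1.44 on the log2 scale (SE 0.28, edgeR adjusted p = 0.0247). It kept an adjusted p-value under 0.05 in 2 of the 6 fits with 1 library left out, those without sgControl library 1 or 2, and the other 4 gave between 0.0513 and 0.0883. ODC1, the first enzyme of the route, had a log2 fold change of 0.09 (edgeR adjusted p = 0.941), and the antizyme OAZ1, with the highest CPM of the list, had 657 ± 5.43 and 720 ± 165 CPM.
Among 8 tested genes of nitric oxide, creatine and methylarginine metabolism, GATM rose and 7 did not pass (median 0.01). GATM, which moves the amidino group of arginine to glycine as the first step of creatine synthesis, had 20.9, 36.2 and 19.7 CPM in sgControl and 75.4, 72.4 and 78.8 CPM in sgRFX6. Its log2 fold change was 1.56 (SE 0.26, edgeR adjusted p = 0.0124), and the call was lost without sgControl library 3 (0.0642) and without sgRFX6 library 1 (0.0510). GAMT, also of creatine synthesis, had 34.68, 95.85 and 40.52 CPM in sgControl and 27.21, 24.06 and 12.35 CPM in sgRFX6. GAMT thus lay lower, with a log2 fold change of -1.43, and did not pass the test (edgeR adjusted p = 0.132). The methyltransferase PRMT1, with the highest CPM of this list, had a log2 fold change of -0.02 (edgeR adjusted p = 0.980), and NOS2 was at the floor.
Among 10 tested carriers, SLC7A2 fell and 9 did not pass (median 0.19). SLC7A2, a cationic amino acid transporter that brings arginine and ornithine into cells, had 49.5, 52.9 and 42.5 CPM in sgControl and 12.1, 8.54 and 18.4 CPM in sgRFX6. The log2 fold change of SLC7A2 was -1.89 (SE 0.29, edgeR adjusted p = 0.00964), and the call was lost without sgRFX6 library 1 (0.0536). The related transporter SLC7A1, with the highest CPM of the carriers listed, had a log2 fold change of -0.18 (edgeR adjusted p = 0.787).

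Of 13 tested genes listed as regulators of urea cycle genes in liver, NR1H4 rose and 12 did not pass (median -0.07). NR1H4, the bile acid receptor FXR, was below the filter in every sgControl library and low in sgRFX6, with 4, 5 and 3 counts in the controls against 22, 12 and 22. Its log2 fold change was 2.41 (SE 0.44, edgeR adjusted p = 0.0203), and the call was lost without sgControl library 1 (0.0753), sgControl library 3 (0.105) or sgRFX6 library 1 (0.0937). CEBPA, a liver transcription factor with the highest CPM of the list, had a log2 fold change of 0.34 (edgeR adjusted p = 0.601), and PPARGC1A was at the floor.
Liver zonation was described with a list of genes of the periportal zone, where the urea cycle runs, and a list of perivenous genes and beta-catenin targets. Of 5 tested periportal genes, CPS1 was the one past the test, the median was 0.38, and PCK1, G6PC and GLS2 were at the floor in every library. Of 12 tested perivenous and beta-catenin genes, 4 fell and 8 did not pass, and the median was -0.12.
The 4 were SP5, a transcription factor that Wnt signalling induces, NOTUM and NKD1, secreted and intracellular inhibitors of that signalling, and LGR5, a receptor for R-spondins. SP5, below the filter in every sgRFX6 library, averaged 6.16 ± 1.36 CPM in the controls against 0.247 ± 0.0602 CPM in sgRFX6, a log2 fold change of -4.63 (standard error 0.38). NOTUM went from 37.4 ± 16.1 to 3.66 ± 1.21 CPM, LGR5 from 26.3 ± 6.45 to 4.62 ± 1.34 CPM and NKD1 from 196 ± 22.2 to 57.5 ± 13.6 CPM (SD, n = 3 each), with log2 fold changes of -3.35, -2.51 and -1.77. Adjusted p-values of these 4 genes from edgeR lay between 0.000801 and 0.00340, and each passed the test in all 17 alternatives. GLUL, which stands on the same list, did not pass, nor did AXIN2 (log2 fold change 0.18, edgeR adjusted p = 0.762) or RNF43, with the highest CPM of the list over all 6 libraries (0.10, edgeR adjusted p = 0.854).

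**Figure D4:**
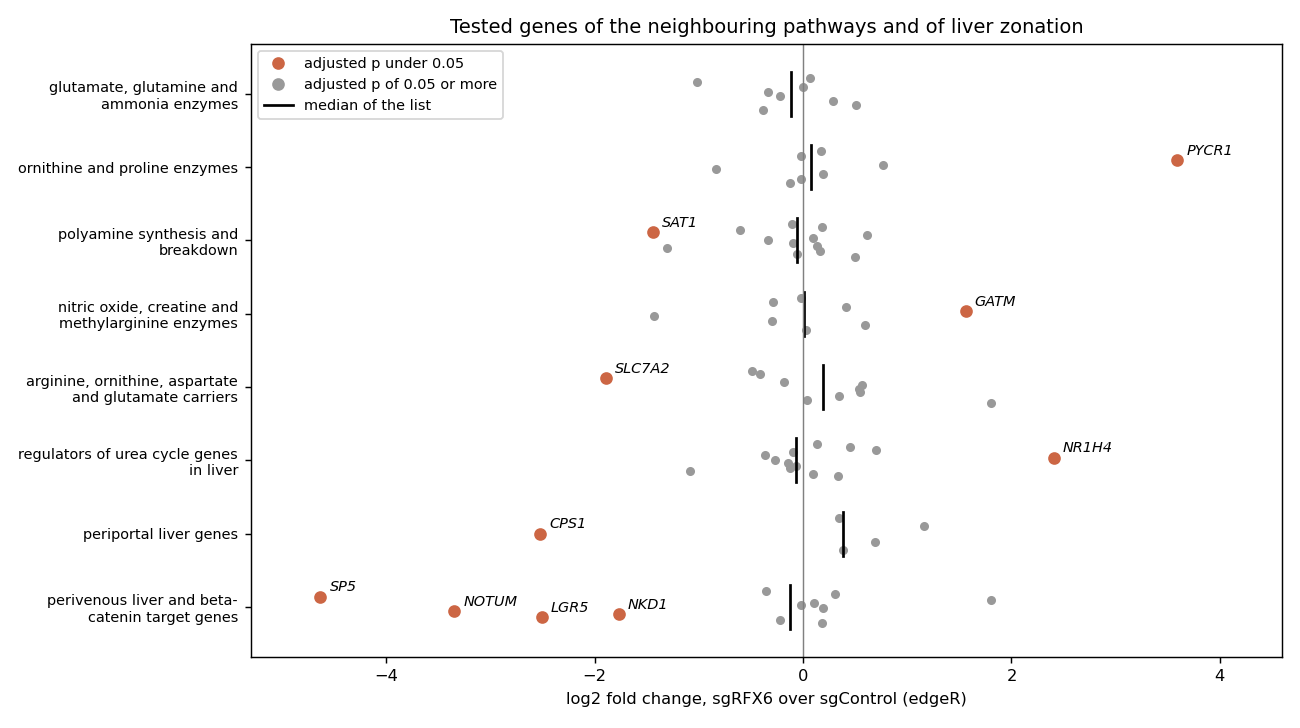
Log2 fold change of sgRFX6 over sgControl (horizontal axis) for the tested genes of the 8 lists, 1 point a gene, with the genes past an adjusted p-value of 0.05 in edgeR named and a line for the median of each list; genes on 2 lists are drawn on both. PYCR1 (3.59), NR1H4 (2.41) and GATM (1.56) lie to the right, and SP5, NOTUM, CPS1, LGR5, SLC7A2, NKD1 and SAT1 to the left.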

How the data were processed

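The deposited table of the authors holds raw read counts for 16721 rows in 6 Hep3B libraries, made from Trizol RNA sequenced on an Illumina instrument. Per the labels the build was GRCh38 (hg38). The aligner, counting program, annotation and strand setting are not given in the sources used here. Columns were matched to samples by name and number. The cas columns, which name no guide, were taken as sgControl, the only control group. A row without a gene name, at most 9.17e-05% of a library, was left out.

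Testing used edgeR 4.0.16 (R 4.3.3) on these counts: filterByExpr (minimum count 10, minimum total 15), TMM factors, the quasi-likelihood test over all 6 libraries without covariates and Benjamini-Hochberg adjustment (threshold 0.05). The study's methods name no test for these data. Standard errors are the fold change (log2) over the root of F. The common biological coefficient of variation was 0.269. Intervals and floors cover counting error only. Positions, transcript lengths and GC content came from GENCODE 29 on GRCh38, which matched 15678 row names.

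All 10 genes are named with all values. From each other list, the text names each gene past the threshold (at most 4) and the tested gene with the highest mean CPM. Chosen after their values were seen were OAT, ODC1, GAMT, AXIN2, genes at the floor and markers not past the threshold. The genes and lists were chosen with earlier results of these data known. As alternatives, DESeq2 1.42.0, limma-voom 3.58.1 (sample quality weights) and edgeR with RLE factors, unscaled libraries, robust dispersions or other filters were run, as were the replicate number as a block, GC and regional corrections (loess span 0.3, nearest 50 genes) and each library left out. On simulated counts for this comparison with 200 changed genes among 12875 tested, edgeR recovered 31.3% of 2-fold, 95.5% of 4-fold and 100% of 8-fold changes, and 3.21% of its calls were false. These counts had the same dispersion for every gene and no GC trend, and genes low in counts were not among those changed. The real libraries varied with GC content, so these rates may not hold for them or for genes near the floor.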

Additional observations from a re-analysis of the deposited data

How the results depend on the processing

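CPS1 and ARG2 kept their direction in all 17 alternatives each and passed the threshold in 13 and 14 of them. The calls that were lost were in fits that left out 1 library, and such fits have fewer samples. Limma-voom with sample quality weights passed 4 of the 8 tested genes, adding ASS1 and SLC25A13 as higher, and the other tested genes passed in no alternative. With 1 library left out, between 0 and 2 of the 8 passed, with 0 without sgControl library 2, sgControl library 3 or sgRFX6 library 1. Over all tested genes, 480 passed, with 908 in DESeq2, 3998 in limma-voom with sample quality weights, 1468 with the GC trends removed, 736 with the replicate block and the GC trends removed (chosen after seeing the data), and, with 1 library left out, 212 (sgControl library 3) to 718 (sgRFX6 library 3). Of the other pathway genes 9 passed, with 33 in limma-voom with sample quality weights, 14 with the GC trends removed, and between 5 (without sgRFX6 library 1) and 10 with 1 library left out. The cause of these differences was not tested. Directions reversed for ASL with the regional median removed (-0.21), for GLUL in limma-voom (0.023) and for SLC25A15, whose value is near 0, with library size only (-0.0065) and without sgControl library 2 (-0.078), sgRFX6 library 1 (-0.0090) or sgRFX6 library 2 (-0.089), its values with 1 library left out running from -0.089 to 0.12. Without division by length, 5 of the 10 genes kept their rank by level in sgControl.

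Same-numbered libraries of the groups deviated from their group means with correlations across genes of -0.41, 0.17 and -0.09, so the numbers were not taken as pairs. The highest correlations were between libraries of different numbers. They were 0.57 for sgControl library 1 with sgRFX6 library 3 and 0.44 for sgControl library 2 with sgRFX6 library 1. With the replicate block 648 of all tested genes, 2 of the 8 and 10 of the other pathway genes passed. NAGS did not pass the stricter filter and has no value there.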
